A study of Mus musculus with 13 samples.

Results

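The Frizzled receptors are the cell-surface receptors through which Wnt ligands act, and the mouse has 10 of them, Fzd1 to Fzd10. All 10 were found among the 19937 measured genes as probe sets that carry exactly 1 Frizzled symbol, 1 probe set for each gene and 10 of 34760 in all. Fzd3 was singled out because its intensity is higher in dark KO retinae than in dark WT retinae, so its values in the dark arrays chose it and are given as a description without a test. The other 9 were taken as members of the family.

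RNA of mouse retina was measured with Affymetrix Mouse Gene 1.0 ST arrays in mice with a global KO of PGC-1α (KO) and in C57 BL/6 NRj mice (WT), 1 array per mouse, both retinae of the mouse together. The arrays as labelled are 3 of KO mice after light (KO light), 3 of WT mice after light (WT light), 3 of KO mice kept in the dark (KO dark) and 4 of WT mice kept in the dark (WT dark). Light was 15000 lux for 2 h after dark adaptation with dilated pupils, and the dark mice were dark adapted without this exposure. The methods describe a recovery overnight in the dark after the light, and the paper states no time from light to RNA for the arrays. The KO was on a C57 BL/6 background and affects every tissue, not the retina alone, and the WT mice were bought, so the KO and WT mice are not stated to be littermates. The mice were young adults whose age is given for the study as a whole and not for each array. The labels give male for every light-exposed mouse and for WT dark 4, and female for the remaining dark mice, so that sex and light cannot be told apart, while the methods name male mice throughout.

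Wnt proteins bind the extracellular cysteine-rich domain of a Frizzled, and with the co-receptors Lrp5 or Lrp6 the receptor stabilises β-catenin, which then acts with TCF and LEF factors on DNA. Without these co-receptors Frizzleds also act through planar cell polarity proteins, which orient cells and guide axons. In the retina the best known pair is Fzd4 and its ligand norrin, the product of Ndp, which is made by Müller glia and needed for the growth and the barrier of retinal vessels. In bulk tissue fewer cells of a type and less RNA per cell cannot be told apart.

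In 2 of the 13 arrays the values went against the labels. Over all genes the array labelled WT dark 4 correlated at 0.997 with KO light 1 and 2 and at 0.989 with WT dark 1 to 3, and the array labelled KO light 3 correlated at 0.997 with WT dark 1 to 3 and at 0.992 with KO light 1 and 2. WT dark 4 was left out of the fit, which used 12 arrays with their labels as given. Differences that involve KO light are also given with the array labelled WT dark 4 in place of KO light 3 (the exchanged arrays), a grouping that goes against the labels. Xist and Uty matched the labelled sex in all 13 arrays, and KO light 3 was male-like, with a log2 intensity of 5.31 for Xist, which was at least 11.86 in WT dark 1 to 3. Ppargc1a, which encodes PGC-1α, read 9.96 to 10.25 in KO light, 9.85 to 9.99 in WT light, 10.19 to 10.40 in KO dark and 10.01 to 10.03 in WT dark 1 to 3, and the sources used here do not place its probes against the deleted part, so it checks nothing. The retina markers fit the tissue, with 7 rod genes between 9.0 and 13.8 in every array.

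Intensities are given as log2, and levels of different probe sets are not compared with each other. A difference is the first-named group minus the second, and a gene was called when its limma adjusted p (Benjamini-Hochberg over 19937 genes) was under 0.05 and its ratio reached 1.2 or more, or 0.87 or less. With 3 against 3 arrays an exact two-sided test of 1 gene cannot give a p below 0.1, so the tests rest on limma's fit across all genes. The labels call the arrays biological replicates.

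**Figure D1:**
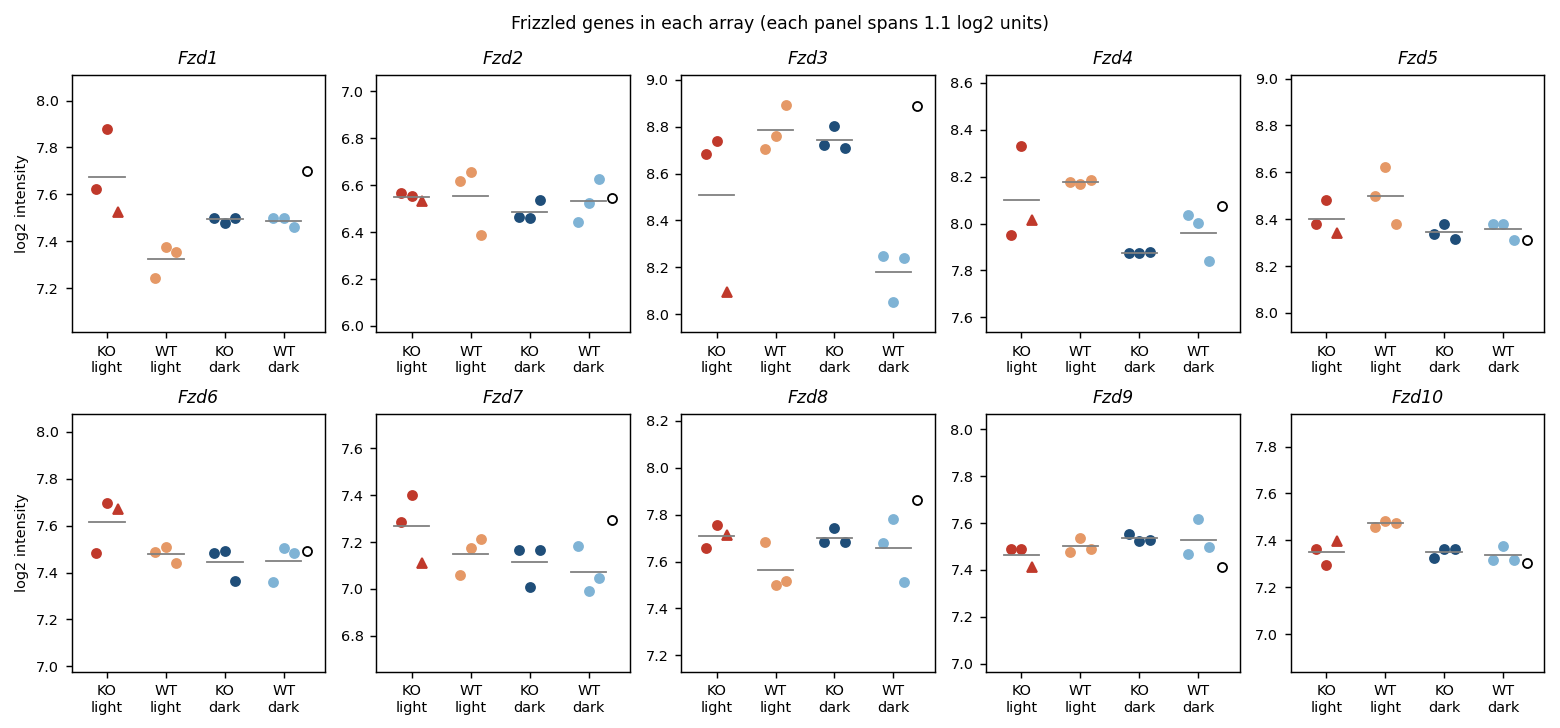
Log2 intensity of the 10 Frizzled genes (vertical axes, each spanning 1.1 log2 units) in KO light, WT light, KO dark and WT dark. Points are single arrays, bars are means of 3 arrays, the triangle is the array labelled KO light 3 and the open circle is WT dark 4, which is in no mean. Fzd3 is low in WT dark 1 to 3 and KO light 3, and Fzd1 is higher in all 3 KO light arrays than in all 3 WT light arrays.

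Fzd3 and Fzd6 are the receptors best known from planar polarity, Fzd3 in the guidance of axons and Fzd6 in the patterning of hair. Fzd3 took 1 of 2 levels in this series. It read 8.68, 8.74 and 8.10 in KO light 1 to 3, 8.71, 8.76 and 8.89 in WT light, 8.72, 8.80 and 8.71 in KO dark, and 8.25, 8.05 and 8.24 in WT dark 1 to 3. WT dark 4 read 8.89. The low arrays were therefore WT dark 1 to 3 and the array labelled KO light 3, between 8.05 and 8.25, and the other 9 arrays lay between 8.68 and 8.89 with no overlap.

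The mean of Fzd3 in KO dark was 8.74 ± 0.05 (SD, n = 3), against 8.18 ± 0.11 in WT dark (SD, n = 3), a difference of 0.57 on the log2 scale (SE 0.13), which is the value that chose it. Between WT light and WT dark, a comparison that shares the WT dark arrays, it was 0.61 (SE 0.13), and between KO light and KO dark it was -0.24 as labelled (SE 0.13) and 0.03 with the exchanged arrays (SE 0.07). The light response in KO less the light response in WT was -0.85 as labelled (SE 0.19) and -0.58 exchanged (SE 0.10). These values are descriptions, since each uses the dark arrays. Xist was high in 3 of the 4 low arrays and low in KO light 3, and among the 9 others KO dark 1 to 3 had high Xist. The part of sex in the levels of Fzd3 was not tested.

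The means in KO light vs WT light come from other mice than those of the dark comparison. The SE, interval and adjusted p rest on a spread estimated over all groups, the dark arrays included. Here Fzd3 averaged 8.51 ± 0.36 in KO light and 8.79 ± 0.10 in WT light (SD, n = 3 each), a difference of -0.28 (SE 0.13, 95% interval -0.57 to 0.01, limma adjusted p 0.405), and the wide spread of KO light came from array 3 alone. KO light with the exchanged arrays averaged 8.77 ± 0.11 (SD, n = 3), the difference was -0.02 (SE 0.07, 95% interval -0.17 to 0.13) and the limma adjusted p was 0.908. The arrays overlapped in both cases.

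The genes with profiles most like Fzd3 over the 13 arrays were Cdk2ap1 (r 0.96), Trpc6 (0.95), Gcsh (0.95), Cox18 (0.94) and Lysmd2 (0.94), picked for that correlation from all genes. Each was lower in the same 4 arrays than in the other 9 without overlap, which follows largely from that choice and is no further result. Cdk2ap1, which encodes a partner of the kinase Cdk2, read 10.35 to 10.46 in the 4 low arrays and 11.53 to 11.68 in the other 9, the widest separation of the set. Trpc6, a cation channel, read 7.34 to 7.49 in the 4 and 7.66 to 7.86 in the 9, and Cox18, needed to assemble cytochrome c oxidase, read 9.33 to 9.48 in the 4 and 9.72 to 9.97 in the 9. Gcsh, a subunit of the glycine cleavage system, read 5.63 to 5.72 in the 4 and 5.82 to 6.01 in the 9, and Lysmd2 read 7.73 to 8.02 in the 4 and 8.21 to 8.43 in the 9. Cdk2ap1 and Cox18 lie on chromosome 5, Trpc6 and Lysmd2 on chromosome 9, Gcsh on chromosome 8 and Fzd3 on chromosome 14.

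**Figure D2:**
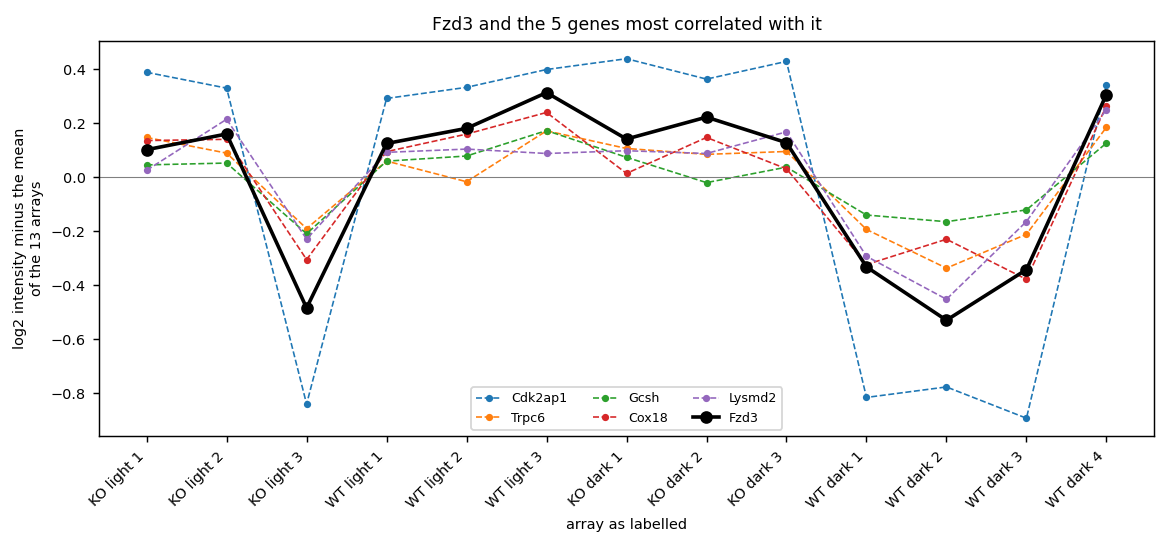
Log2 intensity of Fzd3 (thick black line) and of the 5 genes most correlated with it, each minus its own mean over the 13 arrays (vertical axis), in each array as labelled (horizontal axis). All 6 genes are lowest in KO light 3 and WT dark 1 to 3 and high in the other 9 arrays.

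The genes around Fzd3 had smaller differences than Fzd3. Of the 10 measured neighbours on chromosome 14, 5 on each side in RefSeq order, the difference between KO dark and WT dark ran between -0.11 for Elp3 and 0.11 for Extl3. In WT light minus WT dark the neighbours ran between -0.19 for Ints9 and 0.20 for Fbxo16, which lies next to Fzd3. Over the 13 arrays the Pearson r of neighbours with Fzd3 ran between -0.69 for Ints9 and 0.63 for Fbxo16. It was 0.54 for Extl3, which lies next to Fzd3 on the other side. None of the other 9 Frizzled genes followed it across the 13 arrays, with Pearson r with Fzd3 between -0.13 for Fzd6 and 0.48 for Fzd7, as a description over arrays that share groups.

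**Figure D3:**
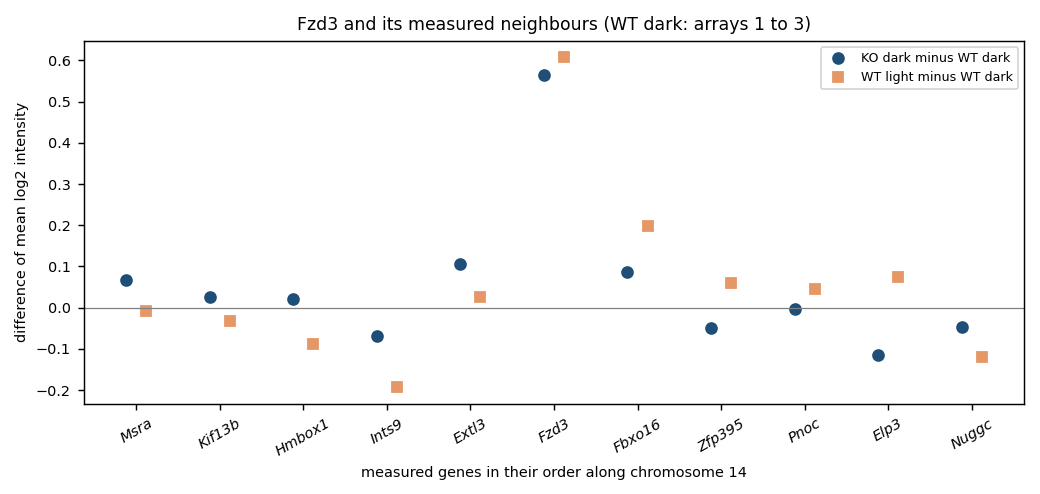
Difference of mean log2 intensity (vertical axis) for Fzd3 and its 10 measured neighbours in their order along chromosome 14 (horizontal axis), as KO dark minus WT dark (circles) and WT light minus WT dark (squares). Fzd3 stands at 0.57 and 0.61, and the 10 neighbours lie between -0.19 and 0.20 in both.

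In the dark comparison no Frizzled gene was called as labelled, beside 0.0752% of all genes (15 of 19937), and with the exchanged arrays 1 was, Fzd3 itself, beside 0.878%. Nothing is read from these counts, because that comparison chose Fzd3. The differences of the other 9 genes between KO dark and WT dark lay between -0.08 for Fzd4 and 0.04 for Fzd8.

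Fzd6 read 7.48, 7.70 and 7.67 in KO light, 7.49, 7.51 and 7.44 in WT light, 7.48, 7.49 and 7.36 in KO dark and 7.36, 7.50 and 7.48 in WT dark 1 to 3, with 7.49 in WT dark 4. KO light 2 and 3 were high and KO light 1 lay among the others. The difference was 0.14 in KO light vs WT light (95% interval -0.005 to 0.28, limma adjusted p 0.403) and 0.17 in KO light vs KO dark (95% interval 0.03 to 0.31, limma adjusted p 0.279). After the exchange these were 0.08 and 0.11.

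Fzd1, Fzd2 and Fzd7 are close relatives that act mainly with β-catenin. Fzd1 was the Frizzled gene with the largest difference between light-exposed genotypes. It read 7.62, 7.88 and 7.52 in KO light, 7.24, 7.37 and 7.35 in WT light, 7.50, 7.48 and 7.50 in KO dark and 7.50, 7.50 and 7.46 in WT dark 1 to 3, with 7.70 in WT dark 4. All 3 KO light arrays lay above the 9 other arrays of the fit, all 3 WT light arrays lay below the rest, and the dark groups overlapped.

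Fzd1 averaged 7.68 ± 0.18 in KO light and 7.32 ± 0.07 in WT light (SD, n = 3 each). The difference was 0.35 (SE 0.08, 95% interval 0.19 to 0.52), a ratio of 1.28, and missed the threshold as labelled with a limma adjusted p of 0.0956. KO light with the exchanged arrays averaged 7.73 ± 0.13 (SD, n = 3), the difference was 0.41 (SE 0.06, 95% interval 0.28 to 0.54), the ratio 1.33, and Fzd1 was called with a limma adjusted p of 0.00103. It was also called when the array labelled KO light 3 was left out with nothing in its place (0.43, adjusted p 0.00438). When each array of the exchanged fit was left out in turn it was called in 12 of 12 cases, with differences of 0.34 to 0.47. Leaving out a KO dark array or one of WT dark 1 to 3 kept the difference at 0.41, since those arrays enter only through the shared spread. The case without WT dark 4 is the same fit as the one named just before.

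The light responses of Fzd1 had opposite signs in KO and WT. KO light minus KO dark was 0.18 (SE 0.08, limma adjusted p 0.314) and WT light minus WT dark was -0.16 (SE 0.08, limma adjusted p 0.295). The test of their difference gave 0.35 (SE 0.11, 95% interval 0.11 to 0.58, limma adjusted p 0.490) as labelled. After the exchange KO light minus KO dark was 0.24 (limma adjusted p 0.0132, ratio 1.18, under the ratio threshold), the difference of responses was 0.40 (SE 0.09, limma adjusted p 0.0269) and was called, and that call held in 4 of 12 cases when 1 array was left out, with adjusted p of 0.0131 to 0.0703.

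Fzd7 read 7.28, 7.40 and 7.11 in KO light, 7.06, 7.17 and 7.21 in WT light, 7.17, 7.01 and 7.17 in KO dark and 7.18, 6.99 and 7.04 in WT dark 1 to 3, with 7.29 in WT dark 4. KO light 1 and 2 and WT dark 4 were the 3 highest arrays, and KO light 3 lay among the rest. The difference between KO light and WT light was 0.12 (SE 0.08, limma adjusted p 0.583) as labelled and 0.18 (SE 0.07, limma adjusted p 0.101) exchanged. Between KO light and KO dark it was 0.15 (limma adjusted p 0.430) as labelled and 0.21 (limma adjusted p 0.0345, ratio 1.16) exchanged. Over the 12 arrays of the fit Fzd1 correlated with Fzd7 at r 0.64 and with Fzd10 at r -0.71, as a description over arrays that share groups.

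Fzd2 read 6.57, 6.55 and 6.53 in KO light, 6.62, 6.66 and 6.39 in WT light, 6.46, 6.46 and 6.54 in KO dark and 6.45, 6.53 and 6.63 in WT dark 1 to 3, with 6.55 in WT dark 4. The groups overlapped as labelled. In KO light vs WT light the difference was 0.00 both as labelled (95% interval -0.16 to 0.15) and exchanged (95% interval -0.15 to 0.15), an interval that still allows changes of about the size seen for Fzd7.

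Fzd4, Fzd9 and Fzd10 form another branch of the family, and Fzd4 is the norrin receptor. Fzd4 read 7.95, 8.33 and 8.02 in KO light, 8.18, 8.17 and 8.18 in WT light, 7.88, 7.87 and 7.88 in KO dark and 8.04, 8.0 and 7.84 in WT dark 1 to 3, with 8.08 in WT dark 4. All KO light arrays lay above all KO dark arrays, and all WT light arrays above WT dark 1 to 3. KO light minus KO dark was 0.22 (SE 0.08, 95% interval 0.04 to 0.41, limma adjusted p 0.275), and WT light minus WT dark was also 0.22 (SE 0.08, 95% interval 0.03 to 0.40, limma adjusted p 0.225). The first of these was 0.24 with the exchanged arrays (limma adjusted p 0.0453, ratio 1.18). The difference of the 2 responses was 0.01 (95% interval -0.25 to 0.27), and KO light minus WT light was -0.08 (95% interval -0.26 to 0.11), and after the exchange these were 0.03 and -0.06.

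Fzd4 is set beside the vessel markers here. The mean log2 intensity of 6 vessel genes was 7.83 to 7.96 in KO light, 7.85 to 7.88 in WT light, 7.69 to 7.74 in KO dark and 7.81 to 7.83 in WT dark 1 to 3. In KO light vs KO dark 6 of 6 had the higher mean in KO light as labelled and 5 of 6 exchanged. In WT light vs WT dark 3 of 6 were higher. Of 7 Müller glia genes 5 were higher in KO light vs KO dark, as labelled and exchanged, and 5 in WT light vs WT dark. The part of these cells in the Fzd4 values was not tested.

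Fzd10 read 7.36, 7.30 and 7.40 in KO light, 7.46, 7.48 and 7.47 in WT light, 7.32, 7.36 and 7.36 in KO dark and 7.32, 7.38 and 7.31 in WT dark 1 to 3, with 7.30 in WT dark 4. The 3 WT light arrays lay above every other array. The difference between KO light and WT light was -0.12 (SE 0.04, 95% interval -0.22 to -0.02, limma adjusted p 0.284) as labelled. With the exchanged arrays it was -0.15 (SE 0.04, limma adjusted p 0.0258), a ratio of 0.900 that is not under 0.87, so it was not called. That limma adjusted p ran from 0.0273 to 0.0952 when 1 array of the exchanged fit was left out. WT light minus WT dark was 0.14 (SE 0.04, limma adjusted p 0.157). Fzd9 read between 7.41 and 7.49 in KO light, 7.48 and 7.54 in WT light, 7.52 and 7.55 in KO dark and 7.47 and 7.62 in WT dark 1 to 3, and its differences in these comparisons lay between -0.07 and 0.01 as labelled and also exchanged.

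Fzd5 and Fzd8 are a close pair, both known from development of the eye. Fzd5 read 8.38, 8.48 and 8.34 in KO light, 8.50, 8.62 and 8.38 in WT light, 8.34, 8.38 and 8.31 in KO dark and 8.38, 8.38 and 8.31 in WT dark 1 to 3, with 8.31 in WT dark 4. WT light 1 and 2 and KO light 2 were the highest arrays. WT light minus WT dark was 0.14 (SE 0.06, limma adjusted p 0.270) and KO light minus WT light was -0.10 (SE 0.06, limma adjusted p 0.545) as labelled and -0.11 (SE 0.06, limma adjusted p 0.285) exchanged.

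Fzd8 read 7.66, 7.76 and 7.71 in KO light, 7.68, 7.50 and 7.51 in WT light, 7.68, 7.74 and 7.68 in KO dark and 7.68, 7.78 and 7.51 in WT dark 1 to 3, with 7.86 in WT dark 4. WT light 2 and 3 were low together with WT dark 3. KO light minus WT light was 0.14 (SE 0.07, limma adjusted p 0.419) as labelled and 0.19 (SE 0.07, limma adjusted p 0.114) exchanged.

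**Figure D4:**
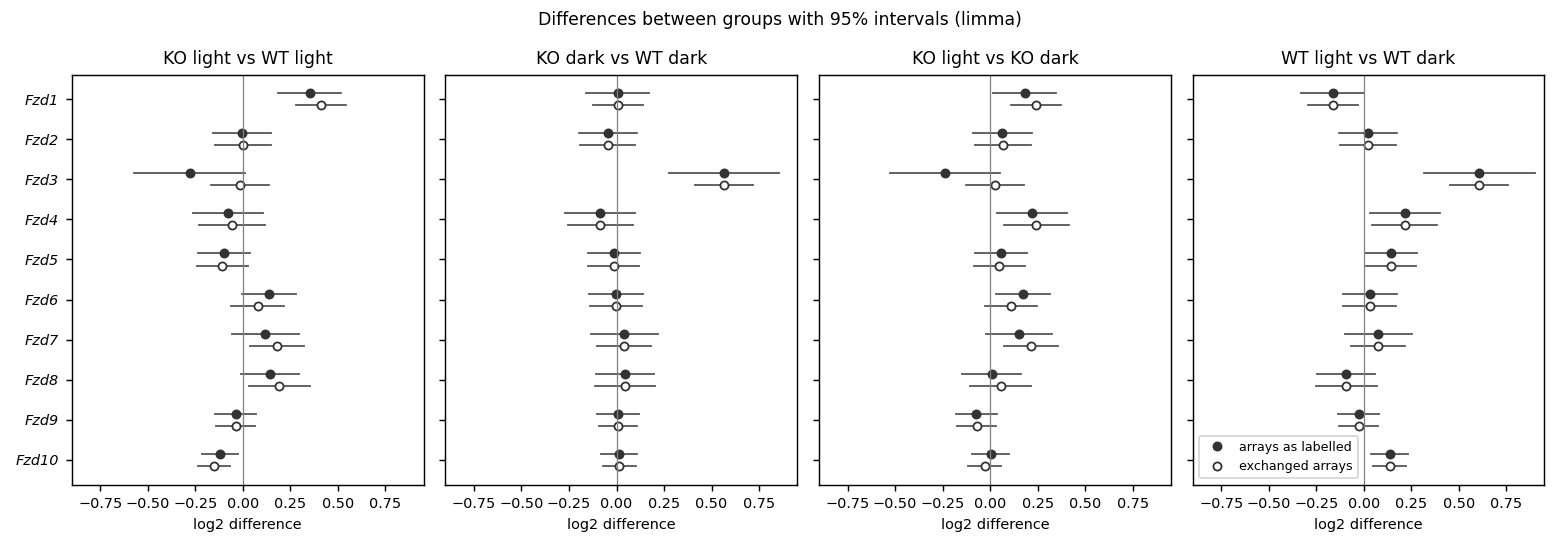
Log2 differences (horizontal axes) of the 10 Frizzled genes between genotypes in the light and in the dark, and between light and dark in KO and in WT (panels from left to right), with 95% intervals from limma, for the arrays as labelled (filled) and the exchanged arrays (open). In KO light vs WT light Fzd1 lies at 0.35 and 0.41, and Fzd3 at -0.28 and -0.02. The Fzd3 values that use dark arrays are descriptions.

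Counted over the family, 0 of 10 Frizzled genes were called in KO light vs WT light as labelled, beside 0.176% of all genes. Over the 9 genes without Fzd3 the count was also 0 in KO light vs KO dark, beside 0.100%, in WT light vs WT dark, beside 0.431%, and in the difference of responses, called by adjusted p alone, beside 0.0602%. At an unadjusted limma p under 0.05 the numbers were 2 of 10 in KO light vs WT light and, without Fzd3, 3 of 9 in KO light vs KO dark, 3 of 9 in WT light vs WT dark and 1 of 9 in the difference of responses. The share of all genes under this unadjusted p is not given here, so nothing is read from these numbers. With the exchanged arrays 1 of 10 was called in KO light vs WT light, Fzd1, where 8.23% of all genes were called, and Fzd1 and Fzd10 passed the adjusted p alone, which 11.9% of all genes did. In KO light vs KO dark none of the 9 genes other than Fzd3 was called beside 13.3%, and Fzd1, Fzd4 and Fzd7 passed the adjusted p alone beside 21.7%. In WT light vs WT dark none of the 9 genes other than Fzd3 was called beside 4.41%, and in the difference of responses 1 of these 9 was, Fzd1, beside 2.78%. Fzd3 met the thresholds in the last pair of comparisons too and is not counted, because both use the dark arrays that chose it. With 10 genes these counts are no result about the family as such. The family's median difference in KO light vs WT light was -0.02 as labelled, and that of all genes was -0.01.

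The 250 bases before the RefSeq start site (GRCm38.p6) are shown for Fzd1, Fzd4 and Fzd7, the 3 genes with an adjusted p under 0.05 in KO light vs KO dark with the exchanged arrays. Of the 10 Frizzled genes 6 had an entry. Each sequence runs 5′ to 3′ on the strand of the gene and ends at the base before the start, and capitals mark CG dinucleotides.
Fzd1, chr5:4758217-4758466, minus strand: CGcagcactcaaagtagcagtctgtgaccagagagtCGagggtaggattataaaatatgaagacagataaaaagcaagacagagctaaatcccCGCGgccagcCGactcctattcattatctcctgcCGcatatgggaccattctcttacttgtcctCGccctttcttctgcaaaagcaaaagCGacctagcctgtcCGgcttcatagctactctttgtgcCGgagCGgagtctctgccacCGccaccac
Fzd4, chr7:89404116-89404365, plus strand: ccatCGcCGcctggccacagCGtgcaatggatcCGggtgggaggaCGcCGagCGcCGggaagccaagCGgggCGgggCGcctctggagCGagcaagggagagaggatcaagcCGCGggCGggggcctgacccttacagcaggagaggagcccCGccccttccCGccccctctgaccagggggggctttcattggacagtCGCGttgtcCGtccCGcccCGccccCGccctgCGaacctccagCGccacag
Fzd7, chr1:59481897-59482146, plus strand: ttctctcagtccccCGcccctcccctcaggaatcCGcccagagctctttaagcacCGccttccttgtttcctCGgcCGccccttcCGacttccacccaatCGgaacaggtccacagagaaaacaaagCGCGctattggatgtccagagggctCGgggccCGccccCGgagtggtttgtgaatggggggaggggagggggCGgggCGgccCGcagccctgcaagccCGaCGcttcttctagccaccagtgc
The Fzd1 window holds 12 CG dinucleotides and is 51.2% G and C, against a median of 6 and 52% over 27025 windows of this length. The Fzd4 window holds 25 at 72.8% and the Fzd7 window 17 at 65.2%, and those of Fzd5, Fzd9 and Fzd10 hold 32, 42 and 37. On either strand, none of the 6 windows held CTTTGAT (TCF and LEF factors), which 3.23% of all windows hold, TTCNNNGAA (STAT factors, 7.18%), TGANTCA (AP-1, 6.87%) or AAGGTCA (estrogen-related receptors, 4.05%). This says only that these letters are not in these windows.

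Around the receptors, 81 genes of Wnt signaling were measured in 6 lists, of ligands (20 of 20), co-receptors and membrane partners (12 of 12), secreted antagonists (11 of 11), receptor turnover (9 of 9), the β-catenin branch inside the cell (15 of 16, without Tcf7) and planar polarity (14 of 14). As labelled, limma called 0 of the 81 in any of the comparisons, with 13 of them at an unadjusted p under 0.05 in KO light vs WT light. Nothing is read from the 13, since the share of all genes under that p is not given here. With the exchanged arrays 7 of 81 (8.64%) were called in KO light vs WT light, all higher, beside the 8.23% of all genes given above, of which 910 were higher and 730 lower. The share is near that of all genes and is no result about the lists.

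Ndp, which encodes norrin, was the called ligand. It read 8.35, 7.92 and 7.28 in KO light, 7.49, 7.41 and 7.57 in WT light, 7.37, 7.26 and 7.43 in KO dark and 7.21, 7.35 and 7.41 in WT dark 1 to 3, with 8.46 in WT dark 4. The arrays labelled KO light 1 and 2 and WT dark 4 were high, and KO light 3 lay among the rest. The difference between KO light and WT light was 0.36 (SE 0.19, limma adjusted p 0.451) as labelled and 0.75 (SE 0.11, limma adjusted p 0.00103) exchanged. Its receptor Fzd4 differed by -0.06 in the same exchanged comparison, its co-receptor Lrp5 by 0.12 (limma adjusted p 0.140) and its partner Tspan12 by 0.09 (limma adjusted p 0.318).

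Among membrane partners, Kremen1, a receptor for Dkk antagonists, read 9.84, 9.72 and 8.91 in KO light, 9.22, 9.22 and 9.35 in WT light, 8.90, 8.92 and 8.95 in KO dark and 8.93, 9.10 and 9.01 in WT dark 1 to 3, with 9.96 in WT dark 4. The same 3 arrays were high as for Ndp. Its difference between KO light and WT light was 0.57 exchanged (SE 0.06, limma adjusted p 0.000245) and 0.22 as labelled (limma adjusted p 0.642). Ror2, a Wnt5a receptor, differed by 0.28 (limma adjusted p 0.0277) between KO light and WT light exchanged, and by 0.21 as labelled (limma adjusted p 0.311). It read 7.46, 7.17 and 7.17 in KO light, 7.04, 7.16 and 6.97 in WT light, 7.17, 7.22 and 7.17 in KO dark and 7.17, 7.37 and 7.23 in WT dark 1 to 3, with 7.39 in WT dark 4.

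Of the other lists, the genes called in the exchanged KO light vs WT light comparison were Lgr5, an R-spondin receptor (0.32, limma adjusted p 0.00339), Nkd2, an inhibitor of Dishevelled (0.43, limma adjusted p 0.00654), and the planar polarity genes Ankrd6 (0.46, limma adjusted p 0.000504) and Daam1 (0.28, limma adjusted p 0.000842). As labelled their differences were 0.19 for Lgr5, 0.38 for Nkd2, 0.24 for Ankrd6 and 0.22 for Daam1, with limma adjusted p of 0.219, 0.132, 0.418 and 0.0940 in this order. Of the antagonists none was called, and the one with the largest difference was Sfrp1, a secreted protein that binds Wnts, at 0.65 exchanged (limma adjusted p 0.0622) and 0.79 as labelled (limma adjusted p 0.130). It read 6.99, 8.08 and 7.50 in KO light against 6.85, 6.69 and 6.66 in WT light, so KO light arrays lay above WT light arrays with a wide spread.

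In KO light vs KO dark with the exchanged arrays 9 of 81 (11.1%) were called, 4 higher and 5 lower, beside the 13.3% of all genes. Kremen1 (0.92), Ndp (0.89), Ankrd6 (0.70) and Ctnnb1, which encodes β-catenin (0.29), were higher, and Rspo2, an R-spondin (-0.52), the factor Tcf7l2 (-0.32), Wnt4 (-0.27), Reck (-0.23) and Celsr3 (-0.22) were lower. As labelled none was called, and the differences were 0.57 for Kremen1, 0.50 for Ndp, 0.48 for Ankrd6, 0.14 for Ctnnb1, -0.38 for Rspo2, -0.13 for Tcf7l2, -0.21 for Wnt4, -0.13 for Reck and -0.17 for Celsr3. In WT light vs WT dark 3 of 81 (3.7%) were called in the exchanged fit, beside 4.41% of all genes, with Wnt2b (0.32) higher and the kinase Gsk3a (-0.26) and the factor Tcf7l1 (-0.27) lower. Neither share is a result about the lists, as both are near those of all genes. The difference of responses was called in the exchanged fit for 4 of 81 (4.94%), beside 2.78% of all genes, and these were Ndp (0.72), Kremen1 (0.67), Ankrd6 (0.49) and Rspo2 (-0.50). As labelled the 4 differences of responses were 0.33, 0.32, 0.27 and -0.36 in this order, and none was called.

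**Figure D5:**
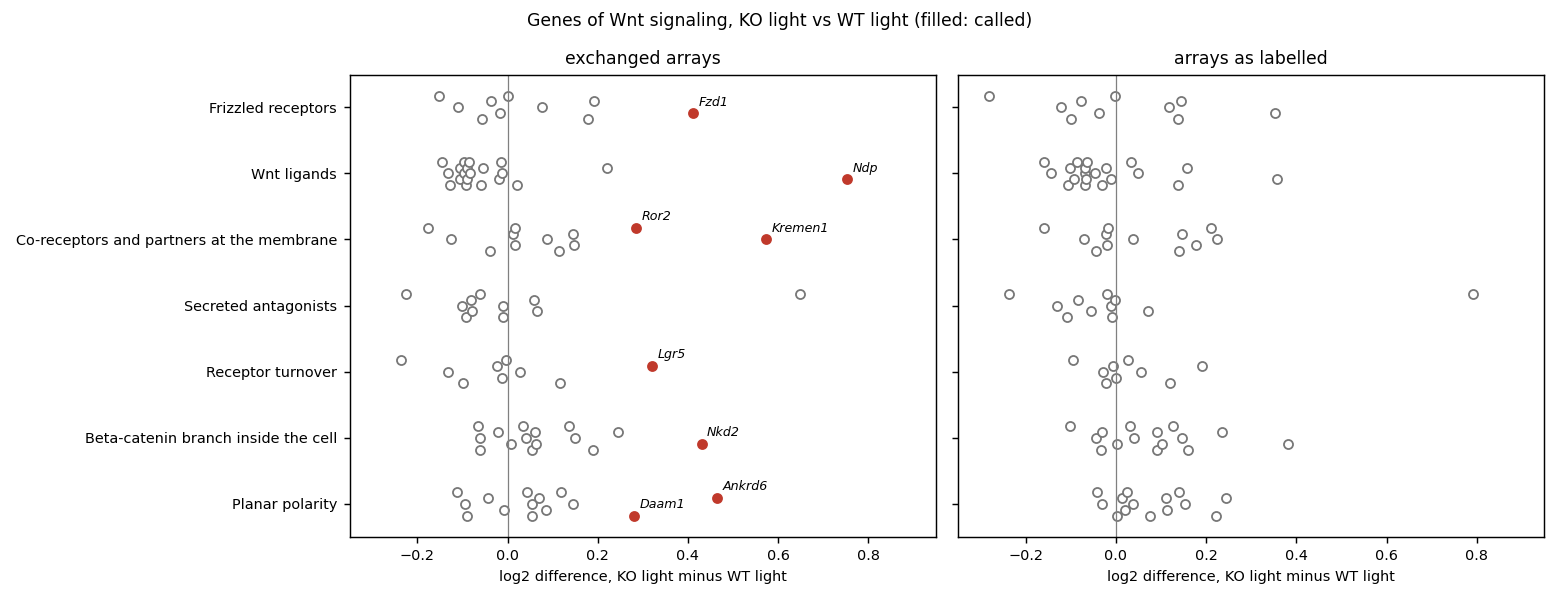
Log2 differences between KO light and WT light (horizontal axes) for the 10 Frizzled genes and the 81 other genes of Wnt signaling in 6 lists, with the exchanged arrays (left) and the arrays as labelled (right). Points are single genes, and filled points with names were called. Fzd1 and 7 other genes were called with the exchanged arrays, all higher in KO light, and none as labelled.

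Markers of reactive glia were highest in KO light 1 and 2 and WT dark 4, in which Fzd1, Ndp and Kremen1 were also highest. The mean log2 intensity of the 6 genes of this list was 8.11 to 10.17 in KO light as labelled, 9.89 to 10.46 in KO light exchanged, 8.08 to 8.96 in WT light, 7.78 to 7.94 in KO dark and 7.61 to 7.99 in WT dark 1 to 3, and 6 of 6 had the higher mean in KO light than in WT light in both. In WT light vs WT dark 6 of 6 reactive glia markers were higher (mean difference 0.67), and Fzd1 differed by -0.16 (limma adjusted p 0.295). Sex changes with light by the labels in that comparison. The rod list read 11.79 to 12.01 in KO light exchanged, against 12.16 to 12.23 in WT light, and 7 of 7 genes had the lower mean in KO light. The cone list read 10.11 to 10.45 in KO light exchanged, against 10.55 to 10.68 in WT light, and 5 of 6 genes had the lower mean in KO light. The lens list varied from 7.61 to 9.37 in KO light exchanged and 6.63 to 9.40 in WT light, and the pigment epithelium list from 7.74 to 8.48 in KO light exchanged and 6.88 to 7.94 in WT light. The part of these cells in the differences of the Frizzled and Wnt genes was not tested.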

How the data were processed

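Processed probe set intensities of 13 Affymetrix Mouse Gene 1.0 ST arrays were used. The deposited intensity values are on a linear scale and were brought to a common level by the authors, whose methods name Partek and Bioconductor. The sources used here do not give their versions, the summarization, the normalization, any filter or the genome build. The median intensity per array was 141.1 to 145.65. For arrays the number of arrays, here 3 per group, limits the precision.

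Values were taken to log2. Of 34760 probe sets 21640 carried 1 gene symbol in the platform annotation, 1321 several and 11799 none, and those with 1 were averaged per gene, which gave 19937 genes. No sample column was left unused (0). Means of the 4 groups were estimated from 12 arrays by limma 3.58.1 (R 4.3.3), with empirical Bayes moderation, 8 residual degrees of freedom before it, no covariate, and Benjamini-Hochberg adjustment over all genes of a comparison. Calls needed an adjusted p under 0.05 together with a ratio that reached 1.2 or was down to 0.87, and the difference of light responses an adjusted p under 0.05 alone. Intervals cover 95%. The fit was tested on simulated data.

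The Frizzled genes, the Wnt and marker lists, the thresholds and the alternatives were chosen with earlier results of these data known. Named are all 10 Frizzled genes, the 5 genes most correlated with Fzd3 (predicted genes, clones and small RNAs left out), 5 neighbours on each side, and in each Wnt list up to 4 called members, or the one with the largest difference between light-exposed genotypes. Lrp5 and Tspan12 were added after their values were seen. Alternatives were the exchanged arrays, WT dark 4 added, each array left out, only the groups compared, quantile normalization, median centring, 16 added before log2, dim genes left out, probe sets tested singly and the replicate number as a block. Leaving out arrays within the exchanged fit was added after seeing the data.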

Additional observations from a re-analysis of the deposited data

Results flagged for a closer look

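Fzd6 and Fzd10 each had 1 array far from the others of WT dark, taken over its 4 arrays as labelled. WT dark 1 was the lowest for Fzd6, and its gap to the nearest array was 0.851 of the whole range. WT dark 2 was the highest for Fzd10, with a gap of 0.850 of the range. Chance marks about 1 in 20 groups in this way.

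The mean light response of Fzd1 had opposite signs in the genotypes. All KO light arrays lay above all KO dark arrays, and all WT light arrays lay below WT dark 1 to 3. Neither response was called as labelled (limma adjusted p 0.314 in KO and 0.295 in WT). The response in KO less the response in WT was 0.35, which missed the threshold as labelled (limma adjusted p 0.490) and passed it with the exchanged arrays (0.40, limma adjusted p 0.0269). With 1 array of the exchanged fit left out, that call held in 4 of 12 cases.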

How the results depend on the processing

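Counts are over all 10 Frizzled genes in the comparisons of genotypes and over the 9 without Fzd3 in the others, which use the dark arrays that chose it. As labelled, 0 were called in each comparison. With the exchanged arrays the count was 1 in KO dark vs WT dark (Fzd3), 1 in KO light vs WT light (Fzd1) and 1 in the difference of responses (Fzd1), and with only the arrays of the groups compared it was 1 in KO dark vs WT dark (Fzd3). When 1 array at a time was left out the counts ran from 0 to 1 in KO dark vs WT dark and in KO light vs WT light, and the 1 came without the array labelled KO light 3. When 1 array was left out of the exchanged fit, the count ran from 0 to 1 in the difference of responses and stayed at 1 in KO light vs WT light. Fzd3, not counted there, met the thresholds in WT light vs WT dark with the exchanged arrays, with only the groups compared, without KO light 2, without KO light 3 and with dim genes left out, and in the difference of responses with the exchanged arrays and without KO light 3. The one difference that changed direction was that of Fzd3 in KO light vs KO dark, 0.025 exchanged and -0.24 as labelled. Of the 50 differences 26 lay within 1 SE of 0, and a change of sign among those is not counted. The cause of these changes was not tested.

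For Fzd1 in KO light vs WT light, 20 alternatives gave differences of 0.25 to 0.43 and adjusted p of 0.00103 to 0.545, and it was called in 2. With the replicate block 0 Frizzled genes were called in every comparison and Fzd1 had a difference of 0.35 (limma adjusted p 0.123). The deviations of arrays with the same number correlated between -0.19 and 0.22, over 0.1 in 3 of 18 pairs. Arrays with different numbers were not compared, so these values cannot decide whether the numbers pair the arrays. Leaving out genes under a mean log2 intensity of 7.49 kept 9969 genes and dropped Fzd1, Fzd2, Fzd7 and Fzd10, so no Fzd1 value exists there.

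Dim probe sets such as Fzd2 had no background value of their own, and their signal over background is unknown here. Sex changes with light by the labels, so the 2 cannot be told apart in any of these fits.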
